A study of Arabidopsis thaliana with 12 samples.

Results

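The genes described here are nuclear protein-coding and noncoding genes that were expressed in the mature leaves of wild-type Arabidopsis (Col-0) and were lower in the mature leaves of ddcc. A gene was selected on the deposited log2 values of 3 Col-0 and 3 ddcc libraries by these conditions: a mean of at least 4 in Col-0, a mean at least 1.5 lower in ddcc than in Col-0, and every ddcc value below every Col-0 value. Identifiers with a suffix, which mark transposable element (TE) genes in the files, and plastid and mitochondrial genes were not considered. The conditions were met by 157 of the 15336 nuclear genes with a mean of at least 4 in Col-0, which is 1.02% of them, out of 21854 nuclear genes without suffix and 23151 identifiers in the leaf table. Since the same values chose the genes, their differences between Col-0 and ddcc are a description, and no test is attached to them. The deposited value is the log2 of a gene's reads, divided by the size factor of the library, plus 1, and all levels and differences below are on that scale unless reads or folds are named.

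The study asked how DNA methylation shapes chromatin and transcription. Col-0 is the wild type, ddcc is a quadruple mutant (drm1 drm2 cmt2 cmt3) without the methyltransferases for non-CG sites, and met1-3 is without MET1, which copies CG methylation onto new DNA strands. All lines are of the Columbia ecotype and were grown under long days without any treatment. Col-0 and ddcc were sampled at 5 weeks and labelled as mature leaves, and met1-3 was sampled at 2 weeks and labelled as young shoots. The methods describe the material as the aerial part, with the inflorescence removed at 5 weeks. Each of the 3 groups had 3 libraries, and nothing states whether they came from separate pools of plants, so that p-values measure only the spread between these libraries, which may be technical. Another 3 files are labelled as met1-3 mature leaves. Their reads were identical to those of the Col-0 library with the same number at 22607 of 22607 shared genes, so they were left out and 9 libraries were used.

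Of the 157 lowered genes, 12 are in a list of 24 genes of jasmonate synthesis and response that is used below. Jasmonates are lipid-derived hormones that leaves make within minutes of wounding or insect feeding and that also act in development and in defence against some fungi. In the absence of the hormone, JAZ proteins bind and repress MYC2 and related transcription factors. The active form, jasmonoyl-isoleucine, brings JAZ proteins to a ubiquitin ligase for destruction, which frees MYC2 to activate its targets. Those targets include the JAZ genes, genes for jasmonate synthesis and genes for jasmonate breakdown, so the pathway carries its own feedback.

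Each library held 10105057 to 13989374 reads assigned to genes, and 3821055 to 5161029 of these fell on nuclear genes. Reads on plastid genes made up 57.8% to 59.6% of the Col-0 libraries, 64.4% to 65.8% of the ddcc libraries and 56.7% to 58.3% of the met1-3 libraries. The summed normalized reads of 6 markers of photosynthetic leaf cells, all of them detected, ranged from 38990 to 48192 in Col-0, from 99768 to 108230 in ddcc and from 127767 to 152899 in met1-3. The 6 floral markers summed to 33.5 to 59.5 in Col-0, 29.9 to 38.4 in ddcc and 16.3 to 28.5 in met1-3. Of 5 root markers, 1 (COBL9) was listed for the leaf libraries and 2 (WOX5 and CASP1) for met1-3, and their sums were at most 2.21 normalized reads in any library. For the shoot meristem list the range was 72.3 to 126 in Col-0, 109 to 132 in ddcc and 36.7 to 47.8 in met1-3, all of it from STM and KNAT1, since CLV3 and WUS were not listed. Guard cell markers summed to 239 to 255 in Col-0, 362 to 372 in ddcc and 337 to 451 in met1-3. Phloem markers summed to 626 to 729, 836 to 964 and 278 to 388 in the same order, and trichome markers to 13.6 to 22.6, 16.8 to 32.1 and 97.9 to 103. In bulk tissue, fewer cells of a type and less RNA per cell cannot be told apart, and the part of cell composition or plastid share in the differences below was not tested. Of the mutated genes, CMT2 had values of 6.87, 7.16 and 6.76 in Col-0 and 7.45, 7.49 and 7.60 in ddcc, and CMT3 had 5.62, 5.58 and 5.44 against 5.25, 5.02 and 5.31. DRM1 had at most 1 read in any leaf library, so these counts do not check the mutations. DRM2 met the conditions and is described below.

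The libraries of one group did not behave alike at the lowered genes. Col-0 replicate 1 held the highest of the 3 Col-0 values at 110 of the 157 genes (70.1%), against 39.7% of the 15336 leaf-expressed genes. At the lowered genes it exceeded the mean of the other Col-0 libraries by a median of 0.95, against 0.02 over the leaf-expressed genes. Replicate 2 of ddcc held the lowest ddcc value at 74 genes (47.1%), against 30.8% of the leaf-expressed genes. The median SD over 3 libraries was 0.64 in Col-0 and 0.50 in ddcc at the lowered genes, compared with 0.18 in each group over all leaf-expressed genes. Without Col-0 replicate 1 the conditions were met by 137 genes, among them 106 of the 157. Of the 157 genes, 80 met the conditions whichever library was left out. Such counts, here and below, apply the same conditions to the values that chose the genes. Leaving out a library also eases the condition on overlap, so these counts are no independent evidence.

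Across the 157 genes the difference of ddcc from Col-0 ran from -5.67 to -1.5, with a median of -1.91, where the leaf-expressed genes had a median of -0.05. A difference of -2 or lower was found for 69 genes and of -3 or lower for 17. Mean Col-0 levels ran from 4.01 to 11.76, with a median of 6.41 against 6.81 for all leaf-expressed genes, so most of the lowered genes were of ordinary abundance in the wild type. Every ddcc value lay below every Col-0 value at 3236 of the leaf-expressed genes (21.1%), so this condition alone was met often. The genes just inside the difference limit were AT2G30020, a protein phosphatase 2C (-1.51), APPR6, grouped below with pentatricopeptide or tetratricopeptide repeat proteins (-1.51), and IMS2 (-1.5). Just outside it were AT5G58680 (-1.49), IAR3 (-1.49) and AT4G35380 (-1.48). In the plot of Col-0 against ddcc means the lowered genes lie along the lower edge of the cloud, with ENODL17 far below the rest.

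**Figure D1:**
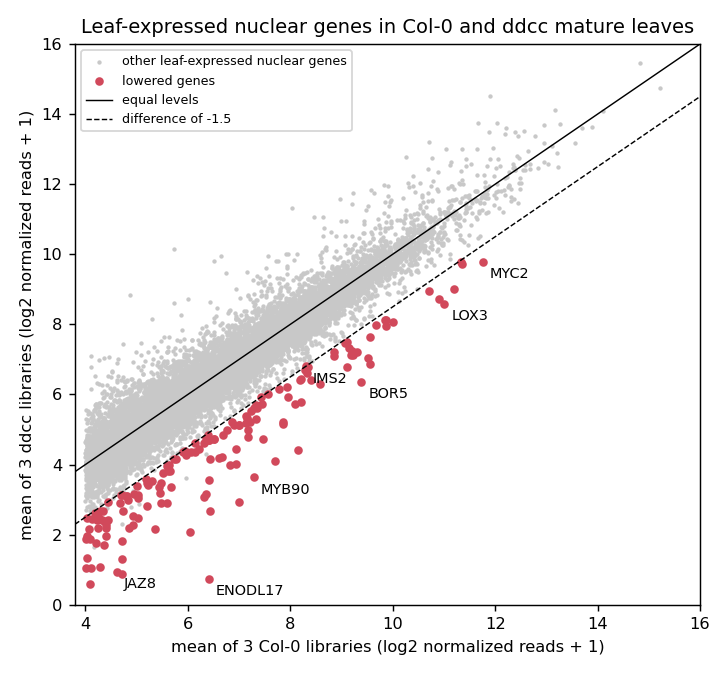
Mean of 3 ddcc libraries (y axis) against mean of 3 Col-0 libraries (x axis), both as log2 of normalized reads plus 1, for the leaf-expressed nuclear genes (grey points) and the 157 lowered genes (red points). The solid line marks equal levels and the dashed line the difference of -1.5 that was used to choose the genes, and ENODL17 has the largest drop, of -5.67.

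All 157 identifiers were found in the TAIR10.1 annotation, which calls 148 of them protein-coding, 3 long noncoding RNA, 3 small nuclear RNA, 2 transcribed pseudogenes and 1 another noncoding RNA. They lay on all 5 chromosomes, with 39, 24, 28, 25 and 41 genes on chromosomes 1 to 5. The lowered genes had fewer exons, with a median of 3 against 5, and 48 of 157 (30.6%) had a single exon against 11.0% of leaf-expressed genes. Their median gene length was 1870 bp against 2552 bp, and their median GC content was 38.7% against 38.8%. The nearest TE gene in the files lay at a median distance of 124 kb, against 119 kb for leaf-expressed genes, and 11 genes (7.01%) had one within 5 kb, against 4.56%. By keywords in the annotated product, 17 genes (10.8%) were counted as transcription factors, against 4.84% of leaf-expressed genes. Glutathione transferases made up 4 genes (2.55% against 0.23%), as did cytochrome P450s (2.55% against 0.68%) and glycosyltransferases (2.55% against 0.52%). Transporters (1.91% against 2.25%) and products of unknown function (5.73% against 5.32%) were near the share of leaf-expressed genes. No product name of a lowered gene matched immune receptors (0% against 0.74%) or receptor kinases or receptor-like proteins (0% against 0.90%). Both classes are small among leaf-expressed genes, so 0 lies near their share. The shares count keywords in product names and miss genes whose names lack them, so counts by role below can differ. They are descriptive and were not tested. For the account below, 97 of the 157 genes were sorted by known role, after their values were seen. No share over all leaf-expressed genes was taken for these roles, so whether their counts exceed it was not tested. At 33 of the 157 genes an annotated gene overlaps on the opposite strand, and since the strand setting of the read counting is not given in the sources used here, reads of such partners cannot be told apart. Among the genes named below this holds for AT3G22275, JAZ10, MYC2, RRTF1, ORA47, WRKY40, MYB95, ZF3, MAPKKK19, BSMT1, UGT76E12, GSTF12, BOR5, NRT1.8, BCAT-2, GolS1, GCL1, AT4G34550 and AT5G40348.

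ENODL17, an early nodulin-like protein of the plant phytocyanin family, had the lowest difference. It is AT5G15350 on the minus strand of chromosome 5, chr5:4984919-4986377 in TAIR10.1. The Col-0 libraries held 90, 123 and 72 reads and the ddcc libraries held 1, 0 and 1. Their values were 6.58, 6.75 and 5.90 in Col-0 and 1.14, 0.00 and 1.07 in ddcc, a difference of -5.67 ± 0.45, with the standard error (SE) from 3 libraries per group. The ratio of normalized reads, pooled over the libraries of each group, was 118, with an exact 95% interval of 32.4 to 979. That interval covers counting error only and not the spread between libraries. Since the gene was chosen for this drop, the interval is no test. In met1-3 young shoots its values were 8.49, 8.39 and 8.39, above every leaf library. When Col-0 replicate 1, the highest library at most of the 157 genes, was left out, its difference was -5.59.

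ENODL17 lies 4.97 kb from DRM1, one of the genes mutated in ddcc, and no other lowered gene lay within 100 kb of DRM1, CMT2 or CMT3. Of 13 annotated genes around it, 10 were listed in the leaf table. The neighbouring gene AT5G15340, which was singled out after its values were seen and had too few reads in Col-0 to be selected, went from 8, 19 and 9 reads in Col-0 to 1, 1 and 1 in ddcc. On the DRM1 side of ENODL17, AT5G15360 and AT5G02405 were not listed. Of the nearest genes with more reads, SPX4 held 37, 49 and 81 reads in Col-0 and 45, 82 and 64 in ddcc, and AT5G15390, beyond DRM1, held 52, 61 and 54 against 51, 66 and 60. DRM1 itself held 0, 1 and 0 reads against 0, 1 and 0.

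**Figure D2:**
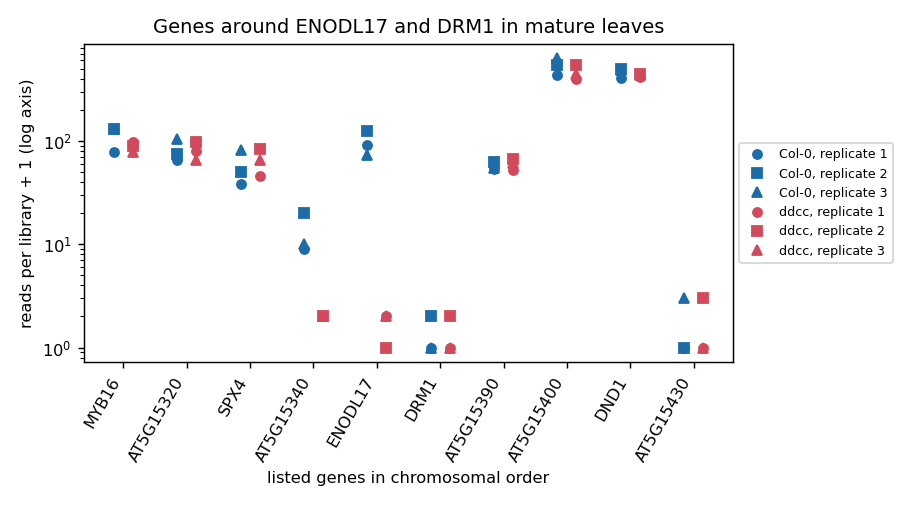
Reads per library plus 1 (y axis, log scale) for the 10 listed genes around ENODL17 and DRM1, in chromosomal order along the x axis, in 3 Col-0 (blue) and 3 ddcc (red) mature-leaf libraries, with a symbol for each replicate. At the neighbouring genes AT5G15340 and ENODL17 the Col-0 libraries hold 8 to 123 reads and every ddcc library holds at most 1, and DRM1 is near 0 in both groups.

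The lowered genes included 7 JAZ repressors. To show what precedes such genes, the 250 bases before the annotated start were read from TAIR10.1 and searched on both strands for the G-box CACGTG, the element that MYC2 and many other basic helix-loop-helix and bZIP proteins can bind. The G-box was present in 35 of the 157 windows (22.3%), against 1177 of 15324 windows of leaf-expressed genes (7.68%). Among the 14 genes of jasmonate repression, synthesis and turnover it was found in 3 (21.4%), near the share of all 157 genes. All 3 are JAZ genes, and the G-box was also found before MYB90. Their windows are shown 5′ to 3′ with the G-box in capitals, followed by that of the synthesis gene LOX3, which holds none.
AT3G22275 (chr3:7879811-7880060, minus strand): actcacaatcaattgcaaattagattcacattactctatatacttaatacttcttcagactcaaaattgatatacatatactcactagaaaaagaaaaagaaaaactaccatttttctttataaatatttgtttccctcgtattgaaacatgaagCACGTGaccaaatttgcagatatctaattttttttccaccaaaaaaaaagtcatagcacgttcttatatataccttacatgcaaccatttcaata
JAZ8 (chr1:10596102-10596351, plus strand): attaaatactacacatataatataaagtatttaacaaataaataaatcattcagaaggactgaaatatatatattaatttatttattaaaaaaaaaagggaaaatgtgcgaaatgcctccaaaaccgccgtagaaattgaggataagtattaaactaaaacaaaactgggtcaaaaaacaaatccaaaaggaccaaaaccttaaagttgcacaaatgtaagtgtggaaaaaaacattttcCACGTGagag
JAZ7 (chr2:14572780-14573029, plus strand): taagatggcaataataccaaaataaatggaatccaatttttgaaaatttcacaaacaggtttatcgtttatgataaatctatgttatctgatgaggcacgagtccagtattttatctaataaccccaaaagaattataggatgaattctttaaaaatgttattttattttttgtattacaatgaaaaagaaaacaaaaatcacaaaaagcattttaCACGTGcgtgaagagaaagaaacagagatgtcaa
MYB90 (chr1:24763691-24763940, plus strand): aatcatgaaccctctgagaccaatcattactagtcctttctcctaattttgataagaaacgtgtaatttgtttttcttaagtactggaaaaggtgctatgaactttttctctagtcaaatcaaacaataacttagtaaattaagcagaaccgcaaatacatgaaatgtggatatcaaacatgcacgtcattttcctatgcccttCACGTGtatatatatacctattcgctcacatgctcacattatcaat
LOX3 (chr1:5977073-5977322, plus strand): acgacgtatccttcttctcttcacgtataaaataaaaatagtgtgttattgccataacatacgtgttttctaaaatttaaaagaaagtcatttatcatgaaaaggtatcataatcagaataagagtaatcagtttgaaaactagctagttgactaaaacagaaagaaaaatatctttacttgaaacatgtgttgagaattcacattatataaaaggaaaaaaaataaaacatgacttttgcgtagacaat

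Counted back from the annotated start, the first base of the G-box lies at -95 in AT3G22275, -10 in JAZ8, -34 in JAZ7 and -46 in MYB90. By function, 8 of the 22 lowered transcription factors had the G-box, as did 3 of 12 genes for kinases, phosphatases or calcium signalling and 0 of 9 noncoding genes and pseudogenes. Genes with the G-box had a median difference of -2.10 (n = 35) and those without one -1.84 (n = 122). Other motifs were searched in the same way. The W-box core TTGAC was found before 49.7% of the lowered genes and 44.7% of leaf-expressed genes, and the TATA core TATAAA before 49.7% and 45.3%. The GCC box GCCGCC was found before 1.91% and 2.04%, the dehydration element core CCGAC before 15.3% and 13.4%, the heat shock element GAANNTTC before 12.7% and 9.44%, and the evening element AAAATATCT before 2.55% and 2.47%. The telo box AAACCCTA was found before 1 lowered gene (0.64%) and 3.65% of leaf-expressed genes. A match to such letters is a description and not a site shown to be bound.

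Of the JAZ genes, AT3G22275, annotated as a jasmonate ZIM-domain protein, had the lowest difference. Its values were 7.17, 5.71 and 5.24 in Col-0 and 2.81, 0.99 and 2.44 in ddcc, a difference of -3.96 ± 0.80. JAZ8, a repressor that resists destruction, had 5.46, 4.2 and 4.18 in Col-0 and 1.76, 0.00 and 1.07 in ddcc (-3.67 ± 0.67). JAZ7, a close relative, had 7.82, 6.65 and 6.0 in Col-0 and 4.57, 3.97 and 3.45 in ddcc (-2.82 ± 0.62). JAZ7 and JAZ8 held 0 reads in all 3 met1-3 libraries. JAZ10, which limits the response once it has begun, had 8.25, 6.31 and 6.28 in Col-0 and 4.57, 4.36 and 4.39 in ddcc (-2.51 ± 0.66). In ddcc its libraries were close together, while in Col-0 replicate 1 stood well above the others. JAZ5 had 9.63, 8.27 and 7.86 in Col-0 against 6.67, 5.85 and 6.35 in ddcc (-2.30 ± 0.59). JAZ1 had 9.61, 8.65 and 8.32 against 7.51, 6.64 and 7.46 (-1.66 ± 0.48), written in the same order, and JAZ6 had 12.18, 11.16 and 10.74 against 10.13, 9.45 and 9.60 (-1.63 ± 0.48). Per kb of exon, the mean for JAZ6 was 1353 normalized reads in the wild type and 407 in the mutant. At each of the 7 genes the groups were separate and Col-0 replicate 1 was highest. The differences ranged from -3.96 to -1.63, with a median of -2.51, and 5 of the 7 met the conditions whichever library was left out.

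The 3 lowered genes of jasmonate synthesis had high values in every library of both groups. LOX3, a plastid lipoxygenase that oxidizes linolenic acid at the start of the pathway, had 12.16, 10.75 and 10.10 in Col-0 and 8.98, 7.71 and 9.05 in ddcc (-2.42 ± 0.75). LOX4, another lipoxygenase of the pathway, had 11.61, 10.51 and 9.99 in Col-0 and 9.12, 8.37 and 9.37 in ddcc (-1.75 ± 0.57). OPR3, the peroxisomal reductase that acts after the plastid steps, had 12.43, 10.86 and 10.29 in Col-0 and 9.49, 8.16 and 9.34 in ddcc (-2.2 ± 0.77). In each of these genes Col-0 replicate 1 was highest and ddcc replicate 2 lowest. The enzymes between them did not pass the test described next, with fitted differences of -1.03 ± 0.32 for AOS and from -1.36 ± 0.36 (AOC3) to 0.24 ± 0.27 (AOC4) for the cyclases (SE, limma). JAR1, which makes the active conjugate, had -0.25 ± 0.25, and LOX2, the main wound-induced lipoxygenase of leaves, had -0.68 ± 0.43.

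Genes of jasmonate turnover were lowered too. CYP94B1 and CYP94B3 are cytochrome P450s that hydroxylate jasmonoyl-isoleucine, and CYP94C1 oxidizes it further. CYP94B1 had 8.07, 5.99 and 5.24 in Col-0 and 4.34, 1.98 and 1.68 in ddcc (-3.77 ± 1.19), a wide spread in both groups. CYP94B3 had 8.48, 7.53 and 7.07 against 5.34, 1.98 and 4.95 (-3.60 ± 1.14), with ddcc replicate 2 well below the others. CYP94C1 had 8.43, 7.17 and 6.78 against 5.38, 4.14 and 4.66 (-2.73 ± 0.61). ILL6, an amidohydrolase that splits jasmonoyl-amino acid conjugates, had 10.24, 8.80 and 8.29 against 7.34, 6.10 and 6.89 (-2.34 ± 0.69). All 4 met the conditions whichever library was left out. Over the 14 genes of repression, synthesis and turnover, Col-0 replicate 1 was highest at 14 and ddcc replicate 2 lowest at 12, as the plot of these genes by library shows.

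**Figure D3:**
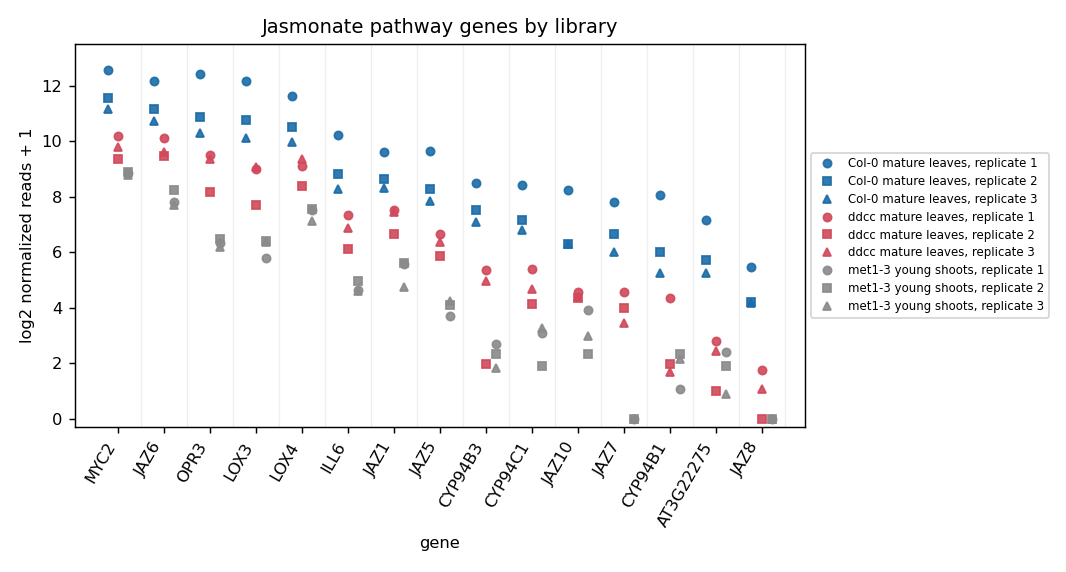
Deposited log2 values (y axis) of MYC2 and the 14 lowered genes of jasmonate repression, synthesis and turnover (x axis, by Col-0 level), with 1 point per library: Col-0 mature leaves in blue, ddcc mature leaves in red and met1-3 young shoots, which were normalized apart, in grey. Every red point lies below every blue point of the same gene, and the circles of Col-0 replicate 1 are the highest at all 15 genes.

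To place these genes in the pathway, a list of 24 genes of jasmonate synthesis and response was counted in a test over all genes. The 6 leaf libraries were compared with limma for 16963 genes that reached about 10 reads in at least 3 libraries, and a gene was called at a Benjamini-Hochberg adjusted p-value under 0.01 with a log2 fold change beyond 1. By this measure 195 genes (1.15%) were lower in ddcc and 664 genes (3.91%) were higher. Scaling to the total of nuclear reads gave 297 lower and 605 higher genes, and scaling to the total of all reads gave 781 lower and 441 higher. The count of lower genes was 84 without Col-0 replicate 2, 125 without ddcc replicate 1, 92 without ddcc replicate 2 and 119 without ddcc replicate 3. Of the jasmonate list, 23 genes were tested, 11 were lower, 0 were higher and 12 did not pass. The median log2 fold change was -1.66 against -0.03 over all genes tested. At an unadjusted limma p-value under 0.05, 19 of the list were lower and 0 higher, against 16.6% and 19.6% of all genes tested. The same contrast chose the members, 12 of which are in the list, so these counts are not independent evidence. This list and those below were also chosen with earlier results of these data known. The adjusted count of lower genes fell to 3 without Col-0 replicate 2, 4 without ddcc replicate 1, 2 without ddcc replicate 2 and 1 without ddcc replicate 3. It was 11 without Col-0 replicate 1 and rose to 14 without Col-0 replicate 3. It was 13 with scaling to nuclear reads, 16 with scaling to all reads and 8 with a pseudocount of 0.1. None of the 11 was called in every one of the 6 fits that left out a library. Of downstream markers of the pathway, VSP2 had -1.71 ± 0.63 and PDF1.2 had -0.09 ± 0.63 (SE, limma), and neither passed.

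Transcription factors were the largest functional group, with 22 genes. MYC2, the central activator of the jasmonate response, had the highest mean Col-0 value of the 157 genes, with no correction for length. It had 12.57, 11.56 and 11.14 in Col-0 and 10.19, 9.36 and 9.79 in ddcc (-1.98 ± 0.49), while 8.86, 8.89 and 8.79 were found in met1-3. RRTF1, an ERF that responds to reactive oxygen and wounding, had 9.10, 8.13 and 7.24 in Col-0 and 5.25, 2.78 and 5.19 in ddcc (-3.75 ± 0.97). RAP2.6, another ERF, had 5.79, 4.80 and 3.54 against 2.81, 0.00 and 1.07 (-3.42 ± 1.05). These ranges were wide within each group but did not overlap. AT4G29930, a basic helix-loop-helix protein, differed by -3.20. ORA47, an ERF that activates jasmonate synthesis genes, differed by -2.41. ORA59 and ERF1, which join jasmonate and ethylene signals at defence genes, differed by -2.27 and -1.76. At ORA59 the Col-0 libraries were close together, at 5.49, 5.50 and 5.36, and the ddcc libraries stood at 3.41, 3.43 and 2.71.

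Regulators of rapid stress responses were also lowered. WRKY40, a repressor induced early by pathogens and wounding, had 10.01, 9.01 and 8.61 in Col-0 and 7.38, 6.95 and 7.36 in ddcc (-1.98 ± 0.44). MYB15, which acts in cold and defence responses, had 7.91, 7.0 and 6.71 against 5.50, 4.83 and 5.27 (-2.0 ± 0.41). The calmodulin-like protein CML38 had 8.33, 7.17 and 6.49 against 6.35, 4.78 and 5.98 (-1.63 ± 0.72), with ddcc replicate 1 at 0.14 below Col-0 replicate 3. In a list of 23 rapid stress response genes, all tested, 5 were lower (RRTF1, WRKY40, MYB15 and the deadenylases CAF1A and CAF1B), 0 were higher and 18 did not pass, with a median of -0.66. Over all genes tested, 1.15% were lower. At an unadjusted limma p-value under 0.05, 17 of the list were lower and 2 higher, against 16.6% and 19.6% of all genes tested. The same contrast chose the members, 4 of which are in the list, so these counts are not independent evidence. The adjusted count of lower genes was 8 with scaling to nuclear reads, 10 with scaling to all reads, 8 without Col-0 replicate 3 and 3 without ddcc replicate 2. WRKY33 (-0.05 ± 0.15) and TCH3 (-0.08 ± 0.16), also in that list, had values near 0 in the same fit. The other lowered factors were ERF2, ERF-1, ERF13, EDF3, CEJ1, AT4G32800, MYB95, AtMYB103, BHLH92, ZF3, NAC3, NAC019 and NAC048, with differences between -2.57 and -1.55.

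Kinases, phosphatases and calcium signalling made up 12 genes, with differences from -3.20 to -1.51. MAPKKK19, MAPKKK21 and MAPKKK14 are upper members of MAP kinase cascades. MAPKKK19 had 7.36, 5.85 and 5.84 in Col-0 and 3.23, 3.30 and 2.93 in ddcc (-3.20 ± 0.52). MAPKKK21 had 7.74, 6.82 and 6.23 against 4.34, 3.14 and 4.60 (-2.91 ± 0.63). MAPKKK14 lies 5.21 kb from AT2G30020 on chromosome 2, and had 7.15, 6.14 and 5.98 in Col-0 against 5.01, 2.97 and 4.46 in ddcc. AT2G30020 had 8.07, 7.20 and 7.04 against 6.09, 6.12 and 5.57. Unlike MAPKKK19 and MAPKKK21, MAPKKK14 in met1-3 was near its Col-0 level, at 6.25, 6.27 and 5.91. CP1, a calcium-binding protein, had 9.91, 9.62 and 9.51 in Col-0 and 8.41, 7.78 and 7.77 in ddcc (-1.69 ± 0.24), and 11.11, 11.23 and 10.55 in met1-3, where it was above every Col-0 library.

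Enzymes that make or modify small defence molecules were found in several families. TPS04, the terpene synthase for a volatile released by damaged leaves, had 8.76, 7.51 and 7.28 in Col-0 and 5.11, 4.88 and 5.67 in ddcc (-2.63 ± 0.52). BSMT1, which methylates salicylic and benzoic acid, had 5.56, 2.64 and 4.11 against 2.2, 0.99 and 0.00 (-3.04 ± 1.06), the lowest Col-0 value being only 0.44 above the highest ddcc value. FAMT, a methyltransferase for farnesoic acid, had 11.06, 9.79 and 9.18 against 8.46, 7.65 and 8.06 (-1.95 ± 0.60). Of 6 UDP-glycosyltransferases, which attach sugars to hormones and defence compounds, all had their highest value in Col-0 replicate 1. UGT76E12 had 7.11, 6.12 and 5.69 in Col-0 and 2.2, 2.97 and 4.04 in ddcc (-3.23 ± 0.68), and AT3G46700, 9.0 kb away on chromosome 3, had 4.71, 3.52 and 3.81 against 1.14, 1.98 and 0.00 (-2.97 ± 0.68). Members of such gene clusters resemble each other, and how reads were divided between near-identical copies could change these values. ARGAH2, an arginase that responds to jasmonate, had 11.61, 10.60 and 10.48 in Col-0 and 8.82, 8.48 and 8.87 in ddcc (-2.17 ± 0.38).

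Glutathione transferases and glutaredoxins, which act in detoxification and redox control, contributed 5 genes with differences from -1.72 to -1.53. GSTU4 and GSTU1 are 3.45 kb apart on chromosome 2. GSTU4 had 8.69, 8.03 and 8.26 in Col-0 and 6.41, 6.85 and 6.55 in ddcc (-1.72 ± 0.23), and GSTU1 had 6.35, 6.26 and 6.62 against 4.42, 4.78 and 4.95 (-1.69 ± 0.19). Both had little spread in either group, and neither had its lowest ddcc value in replicate 2.

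A smaller set of genes had another order among the Col-0 libraries. At 27 of the 157 genes the highest Col-0 value was in replicate 3. Anthocyanin genes belong here in part. MYB90, an activator of anthocyanin synthesis, had 6.35, 7.51 and 7.99 in Col-0 and 2.54, 4.06 and 4.31 in ddcc (-3.65 ± 0.74), and without Col-0 replicate 1 its difference was -4.12. PAP1, its close relative, was nearly level in Col-0 at 7.99, 7.89 and 7.71 and had 4.5, 4.78 and 6.23 in ddcc (-2.69 ± 0.54). LDOX, an enzyme late in anthocyanin synthesis, had 6.0, 6.05 and 6.90 against 4.57, 3.78 and 5.53 (-1.69 ± 0.59). GSTF12, needed to bring anthocyanins to the vacuole, had 4.82, 5.76 and 6.64 against 4.34, 3.43 and 4.72 (-1.57 ± 0.65), with a gap of only 0.10 between the groups. LDOX and GSTF12 in met1-3 stood at 5.70, 6.19 and 6.96 and at 4.92, 5.68 and 6.32, near their Col-0 values. Of 19 listed genes for flavonoid and anthocyanin synthesis, 13 were tested, 3 were lower (PAP1, MYB90 and UGT75C1), 0 were higher and 10 did not pass, with a median of -1.40. Over all genes tested, 1.15% were lower. At an unadjusted limma p-value under 0.05, 9 of the list were lower and 0 higher, against 16.6% and 19.6% of all genes tested. The same contrast chose the members, 4 of which are in the list, so these counts are not independent evidence. The adjusted count of lower genes was 6 without Col-0 replicate 1 and 8 with scaling to all reads. The early enzymes CHS (0.15 ± 0.44) and CHI (-0.01 ± 0.19) had fitted differences near 0.

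**Figure D4:**
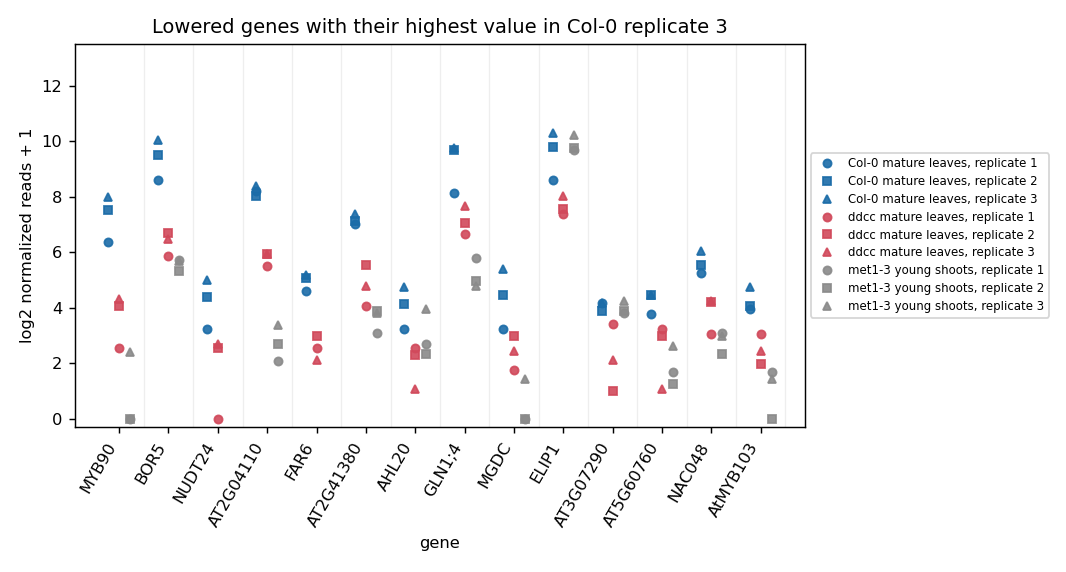
Deposited log2 values (y axis) by library for the 14 lowered genes with the lowest differences among those that had their highest Col-0 value in replicate 3 (x axis), with the colours and symbols of the plot of jasmonate genes. Triangles of Col-0 replicate 3 are the highest blue points, as for MYB90 with 7.99 against 6.35 in replicate 1, and ELIP1 has grey points near its blue ones. NUDT24 and FAR6 have no grey points, since they were not listed for met1-3.

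Genes of nutrient transport and nitrogen use made up 11 of the lowered genes and included both orders. BOR5, a homologue of boron exporters, had 8.59, 9.51 and 10.04 in Col-0 and 5.87, 6.70 and 6.48 in ddcc (-3.03 ± 0.49). NRT1.8, which takes nitrate out of the xylem sap, had 7.25, 6.03 and 5.98 against 3.56, 3.67 and 3.45 (-2.86 ± 0.42). GLN1;4, a cytosolic glutamine synthetase, differed by -2.05. MGDC, a galactolipid synthase known from phosphate starvation, had 3.23, 4.45 and 5.38 against 1.76, 2.97 and 2.44 (-1.96 ± 0.72). BCAT-2, which acts in branched-chain amino acid metabolism, had 6.78, 7.35 and 7.76 against 5.34, 6.08 and 5.43 (-1.68 ± 0.37). AT1G61890, a MATE efflux family protein, had one of the 6 highest mean Col-0 values, with 12.20, 11.25 and 10.56 in Col-0 and 10.21, 9.24 and 9.92 in ddcc (-1.54 ± 0.55).

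Among genes with no group above, AT5G28237, annotated as a pyridoxal phosphate-dependent enzyme, had the second lowest difference, with 8.14, 6.51 and 6.37 in Col-0 and 2.81, 2.56 and 3.45 in ddcc (-4.07 ± 0.63). MC7, a metacaspase, had 5.07, 3.9 and 3.32 against 1.76, 0.00 and 0.00 (-3.51 ± 0.78), with a ratio of normalized reads of 24.0 and an exact 95% interval of 6.36 to 203. JAZ8 and AT5G34795 also had fewer than 3 reads in each ddcc library, with ratios of 22.6 (7.48 to 112) and 23.7 (7.86 to 117). These intervals also pool the libraries, cover counting error only and are no test, as the genes were chosen for their drop. ELIP1, an early light-induced protein of the thylakoid, had 8.61, 9.79 and 10.28 in Col-0 and 7.36, 7.57 and 8.02 in ddcc (-1.91 ± 0.53). CLH1, a chlorophyllase, GolS1, which makes the sugar galactinol, BAM5, a beta-amylase, and LOG6, which activates cytokinins, differed by -1.73, -2.10, -2.70 and -2.90. IMS2, listed as MAM3 of aliphatic glucosinolate synthesis, was the gene nearest the limit. Its libraries were close together, at 8.15, 8.27 and 8.48 in Col-0 and 6.63, 6.79 and 6.98 in ddcc (-1.5 ± 0.14). IMS2 was the only lower gene of 21 tested from that list, with 0 higher, against 1.15% and 3.91% of all genes tested. At an unadjusted limma p-value under 0.05, 1 of the list was lower and 2 were higher, against 16.6% and 19.6%.

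Noncoding RNAs and pseudogenes accounted for 9 genes, and 8 of them met the conditions whichever library was left out. AT5G34795 had 4.59, 5.05 and 4.52 in Col-0 and 0.00, 1.57 and 1.07 in ddcc (-3.84 ± 0.49). The spliceosomal RNAs U1.5, U2.7 and U2.4 had differences of -1.98 ± 0.25, -1.86 ± 0.26 and -1.71 ± 0.17. For U1.5 the libraries held 8.48, 8.52 and 8.2 in Col-0 and 6.56, 6.74 and 5.98 in ddcc, and the met1-3 libraries held 7.83, 8.09 and 7.22. These genes have near-identical copies in the genome, U2.7 and U2.4 overlap genes on the same strand, and reads shared among copies were open to loss at the mapping quality limit, so their values are uncertain. Genes for pentatricopeptide or tetratricopeptide repeat proteins, most of which process organelle transcripts, also numbered 9. Their mean Col-0 values ranged from 4.08 to 5.64, and 2 of the 9 met the conditions whichever library was left out. OTP82, an editing factor of plastid transcripts, differed by -1.68 ± 0.48. AT4G02750 had 4.59, 4.93 and 4.57 in Col-0 and 4.57, 3.78 and 1.07 in ddcc, so that its highest ddcc value and its lowest Col-0 value differed only beyond 2 decimals.

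DRM2, the main enzyme of de novo DNA methylation and one of the mutated genes of ddcc, had 5.59, 6.12 and 6.01 in Col-0 and 4.5, 5.10 and 3.45 in ddcc (-1.56 ± 0.51). The ddcc libraries held 18, 34 and 9 reads of it. It was the only lowered gene in a list of 19 genes of the DNA methylation machinery, of which 16 were tested. In limma 0 of them passed in either direction, DRM2 included, while 4 (25%) were lower and 3 (18.8%) higher at an unadjusted p-value under 0.05, against 16.6% and 19.6% of all genes tested. With scaling to nuclear reads or to all reads 1 of them was lower.

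Of the 157 genes, 22 lay within 20 kb of another, in 11 pairs. No such count was made for other sets of leaf-expressed genes, so whether the lowered genes cluster was not tested. On chromosome 1, JAZ5 and LOX3 are 19.8 kb apart, and CML38 is 18 kb from AT1G76705, a calmodulin-binding protein with 5.15, 4.89 and 5.04 in Col-0 and 2.54, 2.78 and 4.04 in ddcc. On chromosome 3, MYB15 is 12.6 kb from ERF1, which had 6.02, 4.93 and 4.92 against 3.23, 3.14 and 4.22. The ERF gene CEJ1 is 2.22 kb from AT3G50280, an acyltransferase. CEJ1 had 8.44, 6.95 and 6.66 in Col-0 and 6.24, 4.93 and 5.67 in ddcc, and AT3G50280 had 6.78, 5.53 and 5.86 against 5.16, 3.30 and 4.66. On chromosome 4, ERF-1 had 9.36, 8.78 and 8.39 against 7.14, 6.94 and 7.23 and lies 14.3 kb from the hydrolase gene AT4G17470, with 6.80, 5.16 and 5.07 against 3.41, 2.97 and 3.72. These pairs join genes of unrelated families. On chromosome 5, ERF2 had 9.71, 9.16 and 8.78 against 7.30, 6.59 and 7.49 and is 10.6 kb from NUDT8, a nudix hydrolase, with 10.75, 9.31 and 8.50 against 7.59, 6.06 and 7.45. GCL1 had 8.17, 6.84 and 6.49 against 5.21, 4.62 and 5.09, and AT5G65300, 6.87 kb away and of unknown function, had 6.64, 5.23 and 4.57 against 4.05, 2.78 and 3.59. LOG6 had 5.2, 5.05 and 3.89 against 1.76, 1.98 and 1.68 and is 18 kb from DIP2. DIP2, annotated as a ubiquitin ligase, had 7.61, 6.82 and 6.54 against 5.06, 5.14 and 5.23. The remaining pairs, of GSTU, UGT and MAPKKK14 genes, are given above. Within these 11 pairs the groups never overlapped, which the conditions require.

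The level of these genes in met1-3 was read from a separately normalized table of 2-week-old shoots, with no wild type of that age among the files used, so it is described without a test. Of the 157 genes, 153 were listed there, and BSMT1, FAR6, NUDT24 and AT5G40348 were not. Ranked within each library among 20731 nuclear genes, the 153 genes had a median percentile of 56.7 in Col-0 leaves, 29.3 in ddcc leaves and 21.6 in met1-3 shoots. The median difference of met1-3 shoots from Col-0 leaves was -3.23, against -0.23 over 15329 leaf-expressed genes. This difference and that of ddcc use the same Col-0 libraries, in which the genes were chosen to be high, and age, tissue and genotype cannot be told apart in it. Of the 153 genes, 119 had a lower mean in met1-3 shoots than in ddcc leaves. At 82 genes (53.6%) every met1-3 value was below every ddcc value, against 40.3% of the leaf-expressed genes, and at 14 genes (9.15%) every met1-3 value was above every ddcc value, against 25.2%.

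The 5 genes furthest below their Col-0 leaf level in met1-3 were NUDT8 (-7.04), JAZ7 (-6.82), AT5G28237 (-6.65), TPS04 (-6.58) and MYB90 (-6.48). In met1-3 NUDT8 had 2.91, 1.89 and 2.62, TPS04 had 1.67, 1.24 and 0.89, AT5G28237 had 1.06, 0.00 and 0.00 and MYB90 had 0.00, 0.00 and 2.40. Besides JAZ7 and JAZ8, the genes with 0 reads in all 3 met1-3 libraries were MC7, AT2G44578, AT5G44350, AT5G12340 and AT3G20340. At the other end stood ENODL17 (2.01), CP1 (1.29), AT4G34550 (0.61), AT5G52882 (0.35) and ELIP1 (0.33). The F-box gene AT4G34550 had 5.31, 4.39 and 5.30 in Col-0, 3.41, 3.30 and 3.45 in ddcc and 5.87, 5.43 and 5.54 in met1-3. AT5G52882, an ATPase of the P-loop family, had 9.88, 9.0 and 8.56 in Col-0, 7.85, 6.90 and 7.26 in ddcc and 9.35, 9.58 and 9.55 in met1-3. ELIP1 had 9.70, 9.77 and 10.22 in met1-3. At ENODL17, CP1 and AT4G34550 every met1-3 value was above every Col-0 value. By group, the median difference from Col-0 was -5.01 for 3 volatile and methyltransferase genes, -4.83 for jasmonate synthesis, -4.64 for jasmonate turnover, -4.30 for the JAZ genes, -3.47 for transcription factors, -1.40 for noncoding genes and -1.12 for repeat proteins.

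**Figure D5:**
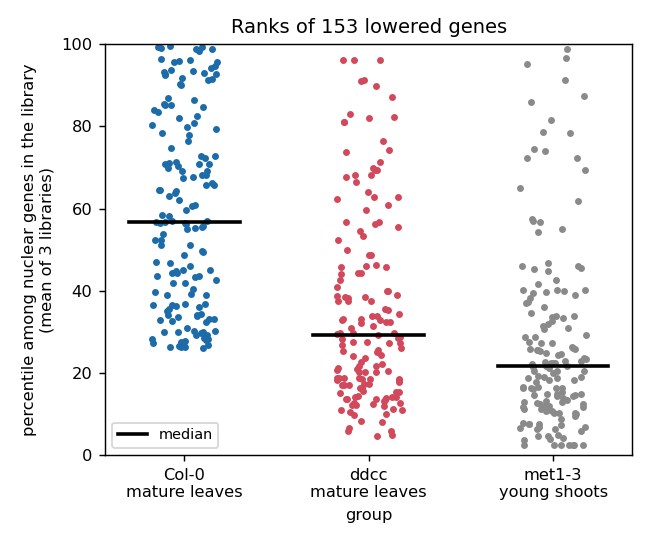
Percentile of each of 153 lowered genes among 20731 nuclear genes of the same library (y axis, mean of 3 libraries) in the 3 groups (x axis), with 1 point per gene and a black line at the median. The medians are 56.7 in Col-0 leaves, 29.3 in ddcc leaves and 21.6 in met1-3 shoots, which are younger and were normalized apart.

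Nuclear photosynthesis genes were higher in ddcc. Of 19 tested, 18 passed as higher, 0 as lower and 1 did not pass, with a median log2 fold change of 1.83, against a background of 3.91% called higher. None of them was among the 157 genes. The salicylic acid defence list had 3 higher and 0 lower of 16 tested, with 0 lower and 9 higher at an unadjusted p-value under 0.05. At that cutoff 16.6% of all genes tested were lower and 19.6% were higher. The count of 3 was 5 without Col-0 replicate 2 and 6 without ddcc replicate 3. The circadian clock list (12 tested) had 0 in either direction in limma, with 7 lower and 2 higher unadjusted, and 1 was lower with scaling to all reads. The heat shock list (10 tested) also had 0, with 7 lower and 0 higher unadjusted, and had 2 lower with scaling to nuclear reads, 3 with scaling to all reads and 1 without Col-0 replicate 3. Over the 21 lists, with 318 genes, 24 of the lowered genes were found in 7 lists. No share over all leaf-expressed genes was taken for the lists, which were chosen with earlier results of these data known. Whether the count of 24 exceeds that share was not tested. Applied in the opposite direction, with every ddcc value above every Col-0 value, the conditions were met by 163 genes. Col-0 replicate 1 held the highest Col-0 value at 62.6% of those genes too, where that order narrows the difference.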

How the data were processed

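RNA was profiled by RNA-seq in aerial parts of Arabidopsis. The authors trimmed and aligned the reads to TAIR10 with HISAT2, kept a mapping quality of at least 30, counted reads per gene with HTSeq-count, and deposited log2 values of reads divided by a DESeq2 size factor, plus 1. Tool versions and the strand setting are not given in the sources used here. Whole reads were recovered from the values, with a largest deviation of 8.2e-08 reads. Genes were chosen by the limits given in the report, and 1 identifier was left out by that rule. The members and the gene lists were chosen with earlier results of these data known. Values per library were given for the 12 lowest differences, the 6 most abundant genes, genes in the lists, genes within 20 kb of each other and genes extreme in met1-3. limma (3.58.1, R 4.3.3, trended variance) tested 16963 genes with about 10 reads in at least 3 of 6 libraries. On simulated counts for this comparison with a log2 fold change of 2, it recovered 198 of 200 changed genes with 1 false call among 16963 genes. The simulation gave all genes the same fixed dispersion, changed only well-expressed genes and held no deviating library. It checks that the fit runs and does not measure its accuracy on the real libraries. Symbols, coordinates and windows are from RefSeq TAIR10.1. Other scalings, pseudocounts, filters, a replicate block and leaving out each library were tried. pandas 2.3.3 and numpy 2.4.6 were used under Python 3.11.15.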

Additional observations from a re-analysis of the deposited data

How the results depend on the processing

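The conditions were met by 326 genes with scaling to the total of all reads, by 265 with no minimum level, by 387 with a limit of -1 and by 69 with a limit of -2, and by 137 to 211 genes with 1 library left out. With limma, 297 genes were lower with scaling to nuclear reads, 781 with scaling to all reads and 84 to 208 with 1 library left out. The count of higher genes was 441 with scaling to all reads and 459 to 760 with 1 library left out. The median over tested genes was -0.03 as deposited, -0.09 with scaling to nuclear reads and -0.35 with scaling to all reads. The differences of 23 genes moved by more than the spread between replicates with a pseudocount of 5, of 18 with scaling to all reads and of 10 with a pseudocount of 0.1. The median difference of met1-3 from Col-0 lay between -3.49 and -2.98 over its alternatives. Genes with fewer than about 10 reads per library limit the precision.

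With the replicate number as a block, 297 genes were lower and 720 higher. Of the jasmonate list 17 genes were lower in that fit, of the flavonoid and anthocyanin list 7 and of the rapid stress list 8. Deviations from the group mean correlated at 0.217, 0.00108 and 0.0406 for libraries with the same number, and Col-0 replicate 3 correlated best with ddcc replicate 2 (0.171), so the numbers were not taken to pair the libraries.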
